A study of Mus musculus with 6 samples.

Results

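The abdominal aorta of control mice was described from 3 of the 6 RNA-seq libraries of the study, the 3 that the labels call control. Genes were ranked by their mean TPM (transcripts per 1000000, a level per transcript length made equal in total between libraries), and no comparison with the other 3 libraries, which come from Prdm16SMKO mice, was made here. The control mice were C57BL/6J males that carried *Myh11*-CreERT2 and that the study calls its wild-type controls. *Myh11*-CreERT2 is a Cre recombinase that acts after tamoxifen in cells that use the *Myh11* promoter, here from a cassette on the Y chromosome, so that only males carry it. The study treated mice by gavage with tamoxifen in corn oil at 75 mg/kg/day for 5 days at 8 to 10 weeks of age and took RNA 2 weeks later; the text does not name the control group apart when it gives this treatment. The aortas had no aneurysm induction. Libraries were made from polyadenylated RNA, and the labels give an average of 40 M read pairs of 151 bp for each. The labels number the libraries 1 to 3 and do not say whether each is a single mouse, so the spread between them may be partly technical.

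The wall of the aorta has an inner sheet of endothelial cells, a media of vascular smooth muscle cells (VSMCs) laid between sheets of elastic fibres, and an outer adventitia of fibroblasts, collagen, small vessels and nerves, with fat around it. Adult VSMCs in a healthy artery are mostly contractile: they hold actin and smooth muscle myosin, respond to hormones and nerves through calcium, and keep up the elastic and collagen matrix that lets the vessel stretch and recoil. In RNA from whole tissue, fewer cells of a type and less RNA per cell cannot be told apart.

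Genes of the mitochondrial genome (names that begin with mt-) and the RNAs *CT010467.1* and *AY036118* were left out of the ranking. They took 46.1%, 38.7% and 50.5% of all TPM in replicates 1, 2 and 3. The mt- genes took 21.1%, 23.2% and 19.1%, highest in replicate 2. *CT010467.1* and *AY036118* together took 24.9%, 15.5% and 31.4%, highest in replicate 3. Shares below are percentages of the TPM of the 55387 genes kept. Since TPM is fixed in total, these unequal shares shift every other gene, and median-of-ratios size factors of the genes kept were 1.01, 1.14 and 0.87. Which library was highest or lowest for a gene is said of deposited TPM unless a scaling is named. Each library stood apart in a group of genes. Replicate 1 was highest in markers of fat and red blood cells, replicate 2 in markers of neurons and Schwann cells and in most contractile genes, and replicate 3 in short noncoding RNAs. Tissue and sex matched the labels. All 6 defining markers of smooth muscle were above 1 TPM in every library, the Y-linked genes *Ddx3y* (29.7 ± 2.43 TPM), *Eif2s3y*, *Kdm5d* and *Uty* were above 1 TPM in every library, and *Xist*, the RNA of the inactive X chromosome of females, was at 0.33, 0.04 and 0.01 TPM.

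In all 3 libraries 12504 genes were above 1 TPM, 22.6% of the genes kept and, among protein coding genes, 11525 of 21963 (52.5%). Above 10 TPM there were 6190 genes, above 100 TPM 660, and above 1000 TPM 44, while 31041 genes were at 0 in every library. The distribution was steep. The 10 highest genes took 13.2% ± 1.48 of the TPM of the genes kept (mean ± SD, n = 3, as throughout), the 100 highest 33.6% ± 1.59, and the 1000 highest 64.6% ± 1.31. The upper 50% of TPM came from 384, 381 and 311 genes in replicates 1, 2 and 3. Protein coding genes held 86.4% ± 2.68 of TPM, unprocessed pseudogenes 6.04% ± 0.078, the class of miscellaneous short RNAs 3.43% ± 2.06, and lincRNAs 1.04% ± 0.111.

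The highest protein coding gene was *Acta2*, which encodes the smooth muscle actin and lies at chr19:34241090-34255590 on GRCm38. It was at 7814, 13019.9 and 6975 TPM in replicates 1, 2 and 3, a mean of 9269 ± 3275. Replicate 2 stood above both others. *Myl6*, a light chain of smooth and nonmuscle myosin (chr10:128490860-128494145), came next among coding genes at 6729, 7359 and 5767 TPM. *Tagln*, the actin-binding protein transgelin or SM22α (chr9:45929619-45936058), followed at 4248, 5501 and 3892 TPM. *Mgp*, matrix Gla protein, an inhibitor of vascular calcification (chr6:136872435-136875823), was at 4308, 4515 and 4268 TPM. Its coefficient of variation (CV, the SD over the mean) of deposited TPM was 3.04%, against 35.3% for *Acta2*, 18.6% for *Tagln* and 12.1% for *Myl6*. After division by size factors the order changed, with 10.9% for *Mgp*, 23% for *Acta2*, 7.27% for *Tagln* and 1.35% for *Myl6*. *Myl9*, the regulatory light chain, was at 3489, 4486 and 3154 TPM. *Fth1*, the heavy chain of the iron store ferritin, was at 3266, 3875 and 3372 TPM. *Igfbp7*, a secreted binding protein of insulin-like growth factors, was at 2973, 4142 and 2768 TPM. In each of these genes replicate 2 was the highest library in deposited TPM, and after scaling by size factors it was so for *Acta2*, *Tagln*, *Myl9* and *Igfbp7* but not for *Myl6*, *Mgp* and *Fth1*. *Tmsb4x*, thymosin beta 4, which holds actin monomers, was at 2973, 3179.8 and 2554 TPM. *Eln*, elastin itself (chr5:134702593-134747323), was at 2531, 3550.01 and 1988 TPM.

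Below elastin the order ran through the translation factor *Eef1a1* (2502, 3149 and 2411 TPM), the mitochondrial leucyl-tRNA synthetase *Lars2* (2272, 2354 and 2869 TPM) and the beta tropomyosin *Tpm2* (2305, 3172 and 1984 TPM). Replicate 3 was the highest library for *Lars2* and the lowest for the other 2 of these genes. *Flna*, filamin A, which cross-links actin, was at 2429.9, 3236 and 1795 TPM. *Myh11*, the smooth muscle myosin heavy chain whose promoter drives the Cre of these mice, was at 1977, 3242 and 1691 TPM. *Bgn*, the matrix proteoglycan biglycan, was at 1869, 2660.3 and 1842 TPM. All 3 genes were highest in replicate 2 and lowest in replicate 3. The nuclear long noncoding RNA *Malat1* was at 2341, 2139 and 1868 TPM, *Actb* (beta actin) at 1895, 2698 and 1673 TPM and the intermediate filament *Vim* (vimentin) at 1778, 2669.96 and 1744 TPM. *Rgs5*, a brake on G protein signalling known from pericytes and arterial VSMCs, was at 2100.3, 2029 and 1849 TPM, and the ribosomal protein *Rps24* at 1836, 2014 and 1818 TPM. Both of these lay within 6.5% CV. *Cald1* (caldesmon, which damps myosin on actin) was at 1641, 2408 and 1605 TPM, *Sparc* (osteonectin, a collagen-binding matrix protein) at 1648, 1962 and 1620.1 TPM and *Dstn* (destrin, which severs actin filaments) at 1649, 1994 and 1478 TPM.

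The ranking is a ladder of overlapping steps. Of the 29 neighbouring pairs among the 30 highest genes, 28 had ranges over the 3 libraries that overlapped, and 5 pairs stood in the same order in every library. Still, 46 genes were among the 50 highest in each library taken alone, and 55 were so in at least 1. Of the 50 highest genes 42 were protein coding. The 20 that complete the 50 held ribosomal proteins, among them *Rplp1*, *Rpl13a*, *Rps15*, *Rps12*, *Rps21*, *Rpl23a* and *Rpl13*, between 1033 and 1659 TPM. They also held the contractile and cytoskeletal genes *Cnn1* (1601 ± 351 TPM), *Tpm1* (1539.7 ± 293 TPM), *Csrp2* (1435 ± 228 TPM) and *Csrp1* (1277 ± 254 TPM). Fibronectin (*Fn1*, 1381 ± 272 TPM), connective tissue growth factor (*Ccn2*, 1176 ± 113 TPM), the protease inhibitor cystatin C (*Cst3*, 1242 ± 68.8 TPM), the small heat shock protein *Hspb1* (1053 ± 112 TPM), *Tpt1* (1498 ± 62.8 TPM), *Ptms* (990.5 ± 124 TPM) and the ATP synthase subunit *Atp5b* (955 ± 221 TPM) were there too.

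**Figure D1:**
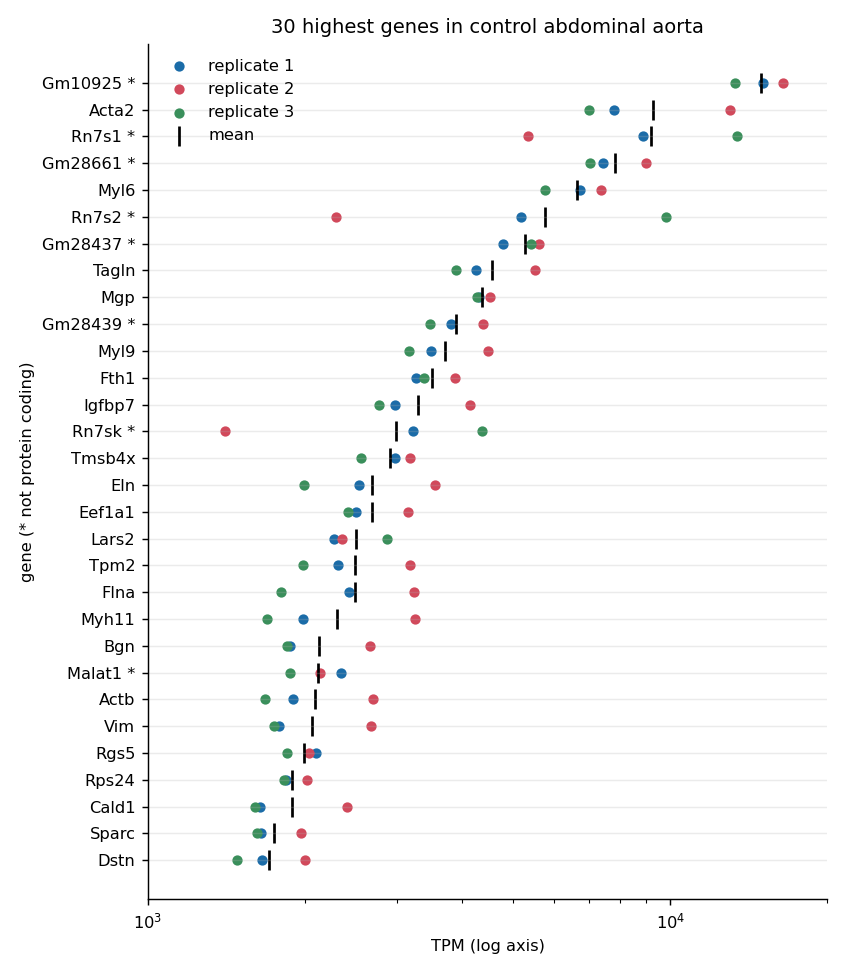
TPM of the 30 genes with the highest mean in control abdominal aorta, on a log axis, with a point for each of the 3 libraries and a tick at the mean; an asterisk marks genes that are not protein coding. Most coding genes were highest in replicate 2, as *Acta2* at 13019.9 TPM, while *Rn7s1*, *Rn7s2* and *Rn7sk* were lowest there and highest in replicate 3.

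The 8 genes of the top 50 that are not protein coding were checked for sequence shared with other genes, by the share of their 31-base words (31-mers, either strand, GENCODE M21 transcripts) that also occur in transcripts of another gene. *Gm10925*, the highest entry of all at 15080.4, 16446 and 13289.9 TPM, and *Gm28661* (7431, 8999 and 7032 TPM), *Gm28437* (4781, 5617 and 5408 TPM) and *Gm28439* (3797, 4370.3 and 3470.4 TPM) are unprocessed pseudogenes that lie side by side on chromosome 1. All of their 31-mers occur in genes of the mitochondrial genome, in *mt-Atp6*, *mt-Co2*, *mt-Co3* and *mt-Nd4* in that order, so that reads of these mitochondrial mRNAs could be assigned to them, and their levels are uncertain. *Rn7s1* (8873, 5339.5 and 13398 TPM) and *Rn7s2* (5177, 2295 and 9825 TPM), copies of the 7SL RNA of the signal recognition particle, shared all of their 31-mers with each other, and *Rn7sk* (3212, 1401 and 4353 TPM), the 7SK RNA that holds back transcription elongation, shared 72.8%. The 3 were highest in replicate 3. Among coding genes, *Tagln* shared 62.2% of its 31-mers with other entries, 58.2% with *Gm48529* alone, *Eef1a1* 51.5%, *Hspb1* 55.4%, *Rpl23a* 83% and *Actb* 23.6%. For *Acta2* (1.39%), *Myh11* (0.905%), *Eln* (3.93%), *Mgp* (0%), *Tmsb4x* (0%), *Flna* (0%) and *Cnn1* (0%) the share was under 4%.

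Contractile genes are those whose products make and control force in smooth muscle. All 35 genes of the list were above 1 TPM in every library, where 22.6% of all genes kept and 52.5% of protein coding genes were. The list took 8.13% ± 1.01 of TPM, 7.7%, 9.29% and 7.42% in replicates 1, 2 and 3. Replicate 2 was the highest library for 33 of the 35 genes (30 after scaling by size factors), and the share was 7.56% without it. *Mylk*, the kinase that switches on myosin, was at 401 ± 99.4 TPM, *Smtn* (smoothelin, found in fully contractile cells) at 724 ± 182 TPM, *Lmod1* (leiomodin, which starts actin filaments) at 289 ± 65 TPM and *Des* (desmin) at 144 ± 23.5 TPM. These values are of the second tier, well under *Acta2* or *Tagln*. The 2 subunits that carry the myosin phosphatase to myosin, *Ppp1r12a* and *Ppp1r12b*, were at 355 ± 67.2 and 296 ± 71 TPM, and *Ppp1r14a*, the inhibitor of that phosphatase, at 421 ± 89.1 TPM.

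Within each protein family a single member led. *Acta2* held 74.6% of the TPM of the 6 actins, ahead of *Actb*, of *Actg1* (880.2 ± 163 TPM) and of the enteric smooth muscle actin *Actg2* (107 ± 27.8 TPM). The striated muscle actins were low, with *Actc1* at 0.83, 4.95 and 5.1 TPM and *Acta1* at 0.85, 1.14 and 1.04 TPM. *Myh11* held 87.5% of the TPM of 14 myosin heavy chains, and the nonmuscle chains *Myh10* (189.6 ± 42.3 TPM) and *Myh9* (124 ± 13.4 TPM) were the only others of the 14 above 1 TPM in every library. Among light chains *Myl6* held 62.3% and *Myl9* was next, while the cardiac chains *Myl2*, *Myl3* and *Myl7* had means under 1 TPM. Other striated muscle chains were low but above 1 TPM in every library. *Myl4* was at 8.23, 13.6 and 8.58 TPM, *Myl1* at 5.41, 2.37 and 2.27 TPM and *Mylpf* at 6.41, 1.53 and 1.74 TPM. *Tpm2* held 58.3% of the tropomyosins, followed by *Tpm1*, *Tpm4* (126 ± 11.1 TPM) and *Tpm3* (97.6 ± 13.3 TPM). *Tagln* held 66.5% of the calponins and transgelins, and *Cnn1* exceeded *Cnn3* (226 ± 39.5 TPM) and *Cnn2* (177 ± 26.9 TPM).

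Many contractile genes are known targets of serum response factor and its partner myocardin, which act through the CArG box, a run of CC, 6 bases of A or T, and GG that reads alike on both strands. RefSeq promoter windows (GRCm38.p6, from 250 bases before to 50 after a start of transcription) were at hand for 29 of the 35 contractile genes; *Myh11*, *Tagln*, *Actg2*, *Smoc2* and *Nexn* were among those without one. A CArG box lay in 7 of their 37 windows (18.9%), from 6 genes, and in 1.63% of all 32851 windows, 1.32% of windows of genes above 1 TPM in every library and 1.3% of those of ribosomal proteins. The stretches around the box are shown for the 6 genes because they show how alike the boxes are at different distances from the start. Each is written 5′ to 3′ on the strand of the gene, with the box in capitals.
Myl6: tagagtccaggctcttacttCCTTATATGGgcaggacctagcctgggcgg
Myl9: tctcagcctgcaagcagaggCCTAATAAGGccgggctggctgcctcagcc
Vcl: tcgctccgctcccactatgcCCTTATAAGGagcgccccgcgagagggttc
Filip1l: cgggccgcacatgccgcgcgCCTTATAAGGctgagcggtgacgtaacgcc
Fhl1: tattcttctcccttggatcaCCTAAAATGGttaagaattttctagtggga
Ldb3: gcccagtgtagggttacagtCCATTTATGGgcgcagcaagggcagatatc
They lie at chr10:128493030-128493079 (- strand), chr2:156775283-156775332 (+ strand), chr14:20929151-20929200 (+ strand), chr16:57549160-57549209 (+ strand), chrX:56779561-56779610 (+ strand) and chr14:34588687-34588736 (- strand) in the same order. The box began 50 bases before the start in *Myl6*, 161 in *Myl9*, 227 in *Vcl* (vinculin, which ties actin to adhesions), 62 in *Filip1l* and 102 in *Fhl1*, and in *Ldb3* the same box lies in the windows of both its starts. The genes stood at 218 ± 62.3 TPM for *Vcl*, 227 ± 28.5 for *Filip1l*, 788 ± 153 for *Fhl1* and 44.1 ± 9.79 for *Ldb3*. The window of *Acta2* held no full box. It held runs that match at 9 of 10 positions, as 19.9% of all windows do, and the run farther from the start is in capitals below.
Acta2: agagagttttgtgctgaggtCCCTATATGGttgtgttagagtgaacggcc
This stretch lies at chr19:34255428-34255477 (- strand), with the run from 84 bases before the start. The letters TATAAA, searched on both strands, lay in 13.5% of contractile windows, 8.11% of those of the 50 highest genes and 13.6% of all. They lay in 7.03% of windows of genes above 1 TPM in every library. These are matches of letters, and binding was not measured.

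Elastic fibres are a core of cross-linked elastin on a scaffold of microfibrils. Of the 22 genes of the list, 21 were above 1 TPM in every library, and the list took 0.866% ± 0.114 of TPM. *Eln* held 55.6% of that. The microfibril genes were far lower, with *Mfap4* at 319 ± 92.6 TPM, *Mfap5* at 104 ± 16.2 TPM and fibrillin 1 (*Fbn1*) at 55.2 ± 14 TPM. *Fbn2*, the fibrillin of fetal tissue, was at 0, 0.19 and 0.01 TPM and was the 1 gene of the list with a mean under 1 TPM. *Fbln5* (231 ± 50.6 TPM) and *Efemp2* (93 ± 17 TPM), which bring elastin to the microfibril, and *Ltbp4* (349 ± 39.7 TPM), which binds latent TGF-β, were all expressed. Of the cross-linking enzymes, *Loxl1* was at 164 ± 37.4 TPM, *Lox* at 64.2 ± 3.36 TPM, *Loxl2* at 18.9 ± 4.42 TPM, *Loxl3* at 26.1 ± 5.26 TPM and *Loxl4* at 2.38 ± 0.318 TPM.

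Collagens give the wall its tensile strength. The 11 fibrillar collagens took 0.405% ± 0.0172 of TPM, with type III above both chains of type I. *Col3a1* was at 903, 887 and 789 TPM, *Col1a2* at 610.1, 678 and 551 TPM and *Col1a1* at 495, 488 and 445 TPM. *Col3a1* and *Col1a1* were highest in replicate 1 and *Col1a2* in replicate 2. *Col5a1* (169 ± 27.1 TPM) and *Col5a2* (83.5 ± 15.2 TPM), which nucleate fibrils, followed, and the cartilage collagens *Col2a1* (0.53, 0.06 and 0.53 TPM) and *Col11a1* (0.14, 0.38 and 0.06 TPM) were near 0. *Col11a2* was higher, at 2.4, 3.13 and 3.55 TPM. Type VI led the other collagens, with *Col6a2* at 215 ± 39.7 TPM, *Col6a1* at 192 ± 33.3 TPM and *Col6a3* at 107 ± 22.3 TPM. The basement membrane list took 0.762% ± 0.0645 of TPM, of which *Sparc* held 41.9%. *Col18a1*, the source of endostatin, was at 532, 828 and 462 TPM, the main network chains *Col4a1* and *Col4a2* at 482 ± 128 and 329 ± 89.8 TPM, and perlecan (*Hspg2*) at 303 ± 69.2 TPM. The laminin chains *Lamb2* and *Lamc1* were at 254 ± 65.2 and 62 ± 8.56 TPM, with *Lama1* and *Lamb3* under a mean of 1 TPM.

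Small leucine-rich proteoglycans and matricellular proteins bind and tune that matrix. The 17 proteoglycans took 0.633% ± 0.0283 of TPM, of which *Bgn* held 60.7%. *Ogn* (osteoglycin) was at 518, 505 and 524 TPM and *Dcn* (decorin, made by adventitial fibroblasts) at 536, 407 and 546 TPM. *Dcn* was lowest in replicate 2, the reverse of *Bgn*. The large proteoglycan versican (*Vcan*) was at 27.3 ± 3.99 TPM, and *Ncan*, *Bcan*, *Epyc* and *Kera*, which belong to brain, cartilage or cornea, had means under 1 TPM. The matricellular list took 1.74% ± 0.024 of TPM with a narrow range, 1.73%, 1.71% and 1.76%, and *Mgp* held 46% of it. The CCN family was well represented by *Ccn2*, by *Ccn1* (688, 699 and 519 TPM), by *Ccn3* (368, 431 and 347 TPM) and by *Ccn5* (133, 167 and 101 TPM), with *Ccn6* under 1 TPM. *Postn* (periostin) was at 904, 1128 and 682 TPM. Osteopontin (*Spp1*), a gene of injured or calcified vessels, was at 0.56, 0.88 and 1.08 TPM. Among proteases and inhibitors, the inhibitors were highest: *Timp3* at 388 ± 65.5 TPM and *Timp2* at 265 ± 19.6 TPM. *Mmp2*, the gelatinase of resting vessels, was at 49 ± 5.38 TPM and *Mmp14*, which activates it, at 40.4 ± 4.47 TPM, while *Mmp9* was at 1.76, 1.22 and 0.92 TPM and *Mmp12* at 0.08, 0.11 and 0.2 TPM.

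**Figure D2:**
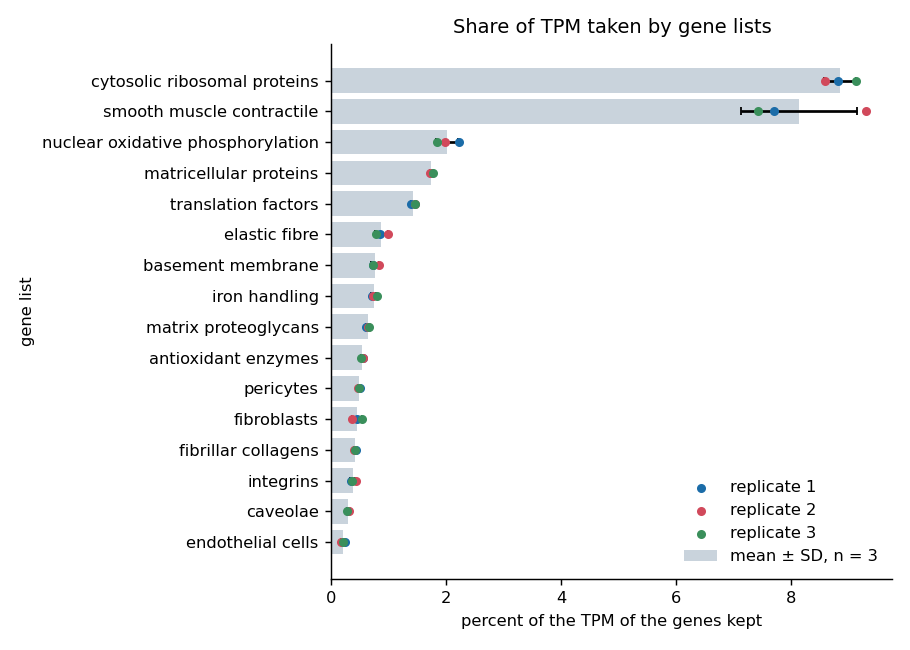
Percent of the TPM of the genes kept that 16 gene lists took in control abdominal aorta; bars are means, error bars SD (n = 3) and points the 3 libraries. Ribosomal proteins (8.84%) and contractile genes (8.13%) took the most, and the contractile list had the widest spread, with replicate 2 above the others.

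Smooth muscle reads vasoactive signals through receptors and answers with calcium. Of 53 receptor genes, 36 were above 1 TPM in every library. *Npr1*, the receptor of atrial natriuretic peptide, was highest at 91.7, 118 and 73.2 TPM. *Ramp1*, part of the CGRP receptor, was at 91.1 ± 9.73 TPM, and the 2 subunits of the nitric oxide receptor guanylate cyclase, *Gucy1b1* and *Gucy1a1*, were at 77 ± 12.9 and 66.7 ± 8.59 TPM. The purine receptor *P2rx1* was at 71.1 ± 16.7 TPM. The alpha 1 adrenergic receptors stood in the order *Adra1d* (44.4, 55.2 and 28.6 TPM), *Adra1a* (6.54, 5.87 and 5.6 TPM) and *Adra1b* (1.53, 1.66 and 1.03 TPM), with no overlap. Of the angiotensin receptors, *Agtr1b* was at 5.43, 4.47 and 4.42 TPM and *Agtr1a* at 0.85, 1.84 and 0.74 TPM, both of type 1, with *Agtr2* at 0.03, 0.02 and 0 TPM, and the endothelin receptors *Ednra* and *Ednrb* were at 5.73 ± 0.852 and 2.61 ± 0.617 TPM.

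Of 52 channels and pumps, 42 were above 1 TPM in every library. The calcium pump of the store, *Atp2a2* (SERCA2), was highest at 155, 232 and 145 TPM, and *Itpr1*, which lets calcium out of the store, was at 103, 161 and 97 TPM. Both were highest in replicate 2. *Itpr1* far exceeded the ryanodine receptors *Ryr2* (15.8 ± 2.17 TPM), *Ryr3* and *Ryr1*, the last 2 with means under 1 TPM. The L-type calcium channel *Cacna1c* was at 27.1 ± 6.37 TPM, the smooth muscle beta subunit of the BK potassium channel *Kcnmb1* at 68.1 ± 17.8 TPM with its pore *Kcnma1* at 29.4 ± 6.63 TPM, and the KATP channel parts *Abcc9* and *Kcnj8* at 64.3 ± 10.3 and 24.7 ± 1.74 TPM. Of 20 connexins 5 were above 1 TPM in every library, led by *Gja1* (connexin 43, 113 ± 12.7 TPM) and *Gjc1* (connexin 45, 49 ± 4.7 TPM), ahead of *Gja4* (16.2 ± 3.43 TPM) and the endothelial *Gja5* (9.44 ± 2.48 TPM). Caveolae, the flask-shaped pits of the smooth muscle membrane, took 0.29% ± 0.0179 of TPM, with *Cavin1* at 610.2 ± 124 TPM and *Cav1* at 423 ± 68.4 TPM. The muscle caveolin *Cav3* was at 21.4 ± 3.14 TPM. Once scaled by size factors, caveola genes had a median CV of 4%, the lowest of the gene lists.

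Growth signals and adhesion receptors were broadly expressed. Of 17 ligands and receptors of the TGF-β family, 16 were above 1 TPM in every library. *Tgfb3* (86.1, 124 and 120.02 TPM) exceeded *Tgfb1* (20.3, 26.4 and 21.8 TPM) and *Tgfb2* (19.7, 25.1 and 20.4 TPM), which overlapped, and the receptors *Tgfbr2* and *Tgfbr1* were at 39.1 ± 6.01 and 30.9 ± 5.16 TPM. *Grem1*, an antagonist of BMPs, was at 0.09, 0.16 and 0.34 TPM. Among growth factors and their receptors *Igfbp7* alone held 67.2% of the TPM. The receptor kinase *Axl* (197 ± 44.1 TPM) and its ligand *Gas6* (267 ± 21.4 TPM) were both high, *Fgfr1* was at 87.2 ± 15.4 TPM, and *Pdgfa* (82.5 ± 10.7 TPM) and *Pdgfrb* (61.4 ± 12 TPM) were both above 49 TPM in every library. Of 20 integrins, *Itgb1* (584, 794 and 585 TPM) and *Itga8* (564, 793 and 531 TPM) led, a pair that forms a receptor for fibronectin and nephronectin. *Itga1*, a collagen-binding chain, was at 32.7 ± 7.49 TPM, while *Itga2*, *Itgb6* and *Itgb7* had means under 1 TPM.

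Transcription factors known from smooth muscle were present in every library. Of 94 factors of the vascular list 76 were above 1 TPM in every library. *Nfix* was highest at 203, 267 and 182 TPM. *Srf* was at 67.7, 88.8 and 60.7 TPM and *Myocd*, its smooth muscle coactivator, at 60.4, 79.8 and 65.7 TPM, with the related *Mrtfa* at 9.33 ± 1.4 TPM and *Mrtfb* at 8.52 ± 0.871 TPM. *Mef2a* (84.6 ± 10.6 TPM), *Epas1* (HIF-2α, 109 ± 13 TPM) and the inhibitors *Id1* (105 ± 19.1 TPM), *Id2* (137 ± 33.4 TPM) and *Id3* (85.6 ± 11 TPM) were high. The cardiac factors *Gata4* (0.06, 0.03 and 0 TPM) and *Tbx5* (0.36, 0.18 and 0.22 TPM) were at or near 0. Of the 17 Krüppel-like factors, *Klf6* (94.8 ± 8.01 TPM) led, and *Klf4*, known for damping the contractile programme, was at 20.8, 26.8 and 37.3 TPM. *Foxc1* (49.8 ± 7.9 TPM), *Foxc2* (33.5 ± 3.81 TPM) and *Foxp1* (62.6 ± 7.38 TPM) led with *Foxn3* among 44 forkhead factors, of which 18 were above 1 TPM in every library and 14 at 0 in each. *Sox13* led the SOX factors at 20.01, 25.9 and 22.6 TPM, ahead of the endothelial *Sox17* (12.9 ± 2.52 TPM) and *Sox18* (12.5 ± 0.186 TPM), and *Tbx18* held 57.2% of the TPM of 14 T-box factors.

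PRDM proteins carry a PR domain and zinc fingers and act on chromatin. *Prdm16*, the gene that the study deleted in its other group, was at 33.4, 36.8 and 30.8 TPM in control aortas (33.7 ± 3.04), rank 2583 of the genes kept. It was second in its family. *Prdm6*, a regulator known from smooth muscle, was at 71.9, 74.2 and 57.2 TPM and held 41.4% of the TPM of the 15 members, with no overlap with *Prdm16*. *Prdm2* (13.3, 16.1 and 13.8 TPM), *Mecom* (also called *Prdm3*, 14.4, 13 and 9.99 TPM) and *Prdm11* (11, 12.7 and 10.9 TPM) followed, the range of *Mecom* overlapping both others, and *Prdm12*, *Prdm13* and *Prdm14* had means under 1 TPM.

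Nuclear receptors were headed by *Nr4a1* (131, 130.2 and 187 TPM), an immediate-early gene that was highest in replicate 3, by *Thra* (132, 155 and 117 TPM), the alpha thyroid hormone receptor, and by *Nr1d1* (132, 155 and 92.9 TPM), the clock repressor REV-ERBα. The ranges of all 3 overlapped. The glucocorticoid receptor *Nr3c1* was at 51.1 ± 3.9 TPM and the mineralocorticoid receptor *Nr3c2* at 4.77 ± 0.776 TPM. *Esr1* was at 13.1 ± 1.92 TPM, while *Esr2*, the liver factor *Hnf4a* and the steroidogenic factor *Nr5a1* had means under 1 TPM.

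Hox genes lie in 4 clusters and number their paralogue groups along the body from head to tail, and adult arteries are known to keep the code of their place. In control abdominal aorta 25 of the 39 Hox genes were above 1 TPM in every library. All 25 belonged to paralogue groups 2 to 10. Not every gene of these groups was among them, with *Hoxd3* at 0.29, 0.39 and 0.16 TPM, and the highest gene of group 11, *Hoxa11* at 1.81, 1 and 1.5 TPM, lay close to *Hoxb9* of group 9 at 1.5, 2.13 and 1.69 TPM. The summed TPM of these groups ran from 16.9 ± 3.06 in group 2 to 38.9 ± 7.58 in group 7, and group 10 was at 30.5 ± 3.26. At group 11 the sum was 1.9 ± 0.36 TPM, at group 12 0.06 ± 0.104 and at group 13 0.373 ± 0.0153, while group 1 at the head end was at 1.2 ± 0.295. The edge between groups 10 and 11 held in every library, 31.7, 33 and 26.8 TPM on one side and 2.26, 1.54 and 1.91 TPM on the other. The clusters differed in level. The Hoxa cluster summed to 112 ± 16.7 TPM, Hoxb to 58.9 ± 12.1, Hoxc to 51.5 ± 9.19 and Hoxd to 22.6 ± 3.25. Hoxb and Hoxc overlapped over the libraries and the other neighbours did not. *Hoxa7* was the highest gene at 28.3, 31.3 and 21.6 TPM, followed by *Hoxa3* at 19.9, 23.4 and 16.9 and *Hoxa10* at 18.8, 20.8 and 15.3. In *Hoxa9* replicate 1 stood apart, with 22.4, 12.1 and 13 TPM. Within group 10, *Hoxa10* and *Hoxc10* (12.4, 11.9 and 11.2 TPM) were on, and *Hoxd10* was at 0.47, 0.26 and 0.2 TPM.

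**Figure D3:**
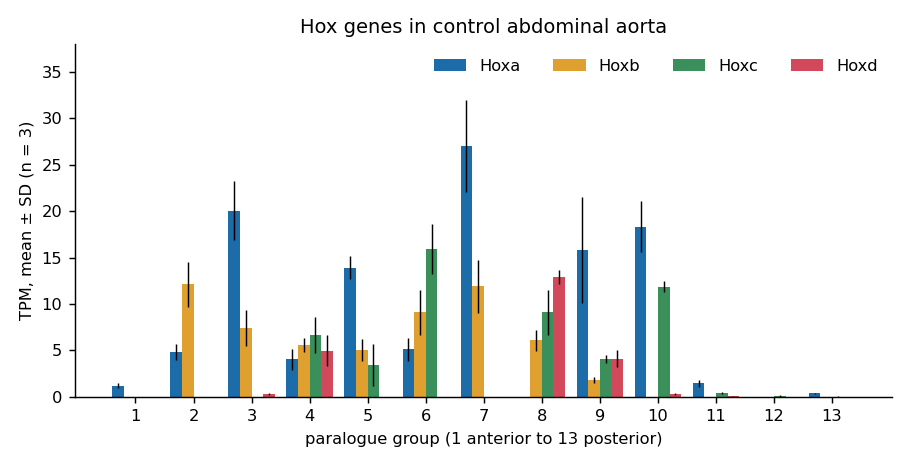
TPM of each Hox gene by paralogue group (1 to 13) and cluster in control abdominal aorta; bars are means and error bars SD (n = 3), and a missing bar is a gene at or near 0 or a place with no gene. Groups 2 to 10 held the 25 genes above 1 TPM in every library, with *Hoxa7* highest at 27 TPM, and no gene of groups 1 and 11 to 13 was above 1 TPM in every library.

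Genes that every cell uses took a large part of the rest. Cytosolic ribosomal proteins took 8.84% ± 0.275 of TPM, the largest mean share of any list. In replicate 2 they took 8.58%, less than the contractile list, and in replicates 1 and 3 more. Of the list, 85 of 91 entries were above 1 TPM in every library, the others being less used relatives such as *Rpl3l* and *Rpl10l*. Their median CV was 8.77% (6.75% after scaling by size factors), where all genes at 500 to 1000 TPM had a median of 12% (7.31% scaled). Nuclear genes of oxidative phosphorylation took 2.01% ± 0.193, with *Atp5b* at 1108, 1055 and 701 TPM and *Cox6a1* at 489, 521 and 389 TPM, both lowest in replicate 3. Translation factors took 1.43% ± 0.0428. Glycolysis took 0.38% ± 0.0477, with *Gapdh* at 436, 633 and 363 TPM and *Aldoa* at 363, 463 and 285 TPM. Replicate 2 was the highest library for both and replicate 3 the lowest. Iron handling took 0.737% ± 0.0428, of which *Fth1* held 86.8%, with the light chain *Ftl1* at 464 ± 23.3 TPM. Antioxidant enzymes took 0.537% ± 0.0249, and the superoxide dismutases included the secreted *Sod3* of the vessel wall at 281 ± 51.7 TPM beside *Sod1* at 426 ± 64.4 TPM. Cell cycle genes were low: 5 of 16 were above 1 TPM in every library, and *Mki67* was at 0.62, 0.47 and 0.35 TPM.

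Genes that answer handling and time of day were measured as well. Of 28 immediate-early genes 26 were above 1 TPM in every library. *Fos* had a wide range, 134, 78.7 and 27.7 TPM, and *Egr1* (128, 102 and 76.6 TPM) and *Dusp1* (183, 146 and 106 TPM) had the same order of libraries, with replicate 1 highest. The list as a whole did not share that order. Replicates 1, 2 and 3 were highest for 13, 5 and 8 of these 26 genes in deposited TPM. After scaling by size factors they were highest for 13, 1 and 12. *Klf2* ran the opposite way, at 67.3, 80.4 and 91.85 TPM. *Jund* was at 336 ± 62.6 TPM. The chaperones *Hspa8* (692, 958 and 814 TPM) and the inducible *Hspa1b* (638, 587 and 568 TPM) and *Hspa1a* (546, 494 and 446 TPM) were high, and these last 2 shared 68.1% and 70.1% of their 31-mers with other genes, mainly each other. The clock output gene *Dbp* was at 199, 215 and 133 TPM, *Per1* at 22.6, 34.1 and 29.3 TPM and *Arntl* (BMAL1) at 2.48, 2.26 and 1.94 TPM. *Dbp* was lowest in replicate 3. The labels do not give the time of day of sampling. Among long noncoding RNAs beyond *Malat1*, *Neat1* was at 284, 218 and 137 TPM, *Carmn*, which smooth muscle is known to express, at 151, 110.5 and 63 TPM, *Gas5* at 162, 162 and 166 TPM, and the RNA components of RNase P and RNase MRP, *Rpph1* and *Rmrp*, at 389, 234 and 877 and 249, 206 and 699 TPM. The last 2 were highest in replicate 3, while *Neat1* and *Carmn* were lowest there. Of 25 imprinted genes 17 were above 1 TPM in every library, with *Gnas* holding 70.1% of their TPM, *Meg3* at 85.9 ± 9.56 TPM and *Igf2* at 20.4 ± 3.02 TPM.

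Defining markers show which cells the libraries hold. Summed over 6 markers (*Acta2*, *Myh11*, *Tagln*, *Cnn1*, *Lmod1* and *Myocd*), smooth muscle stood at 29262, 39506 and 28801 rescaled TPM (TPM with the genes kept set to a total of 1000000). Endothelial markers (*Pecam1*, *Cdh5*, *Vwf*, *Tie1*, *Kdr* and *Erg*) summed to 339, 345 and 486, and all 6 were above 1 TPM in every library. *Pecam1* was at 68.7, 72.7 and 99.6 TPM and *Vwf* at 25.5, 39.7 and 51.3 TPM, both highest in replicate 3. The other 4 were highest in replicate 2 in deposited TPM, with *Erg* at 42.5, 47.6 and 44.7, *Cdh5* at 26.7, 28.2 and 24.3, *Tie1* at 12.6, 13.8 and 13.4 and *Kdr* at 7, 9.54 and 6.93 TPM. The larger endothelial list of 21 genes was led by *Fabp4* (785, 533 and 418 TPM), which is also on the list of white adipocytes. In that endothelial list replicates 1, 2 and 3 were highest for 4, 9 and 8 genes in deposited TPM. After scaling by size factors they were highest for 3, 5 and 13. Fibroblast markers (*Pdgfra*, *Dpt*, *Pi16*, *Dcn* and *Lum*) summed to 1467, 1061 and 1717, lowest in replicate 2. *Pdgfra* was at 19.1, 14.8 and 20.6 TPM, *Pi16*, a gene of adventitial fibroblasts, at 60.2, 62.5 and 73.8 TPM and *Gsn* (gelsolin) at 663, 623 and 698 TPM. *Rgs5* held 75.7% of the pericyte list, whose other genes, such as *Mcam* (271 ± 82.7 TPM) and *Cspg4* (169 ± 36.7 TPM), arterial smooth muscle also uses.

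Immune cell markers were low. The 5 macrophage markers summed to 81.8, 73.6 and 59.1 rescaled TPM, with *C1qa* at 26.7, 29.1 and 16.1 TPM and *Adgre1* (F4/80) at 1.87, 1.33 and 0.93 TPM. None of the 9 T cell genes was above 1 TPM in every library, and *Cd3e* was at 0.34, 0.06 and 0 TPM. The B cell marker *Cd79a* was at 0.99, 0 and 0 TPM, above 0 in replicate 1 alone. Of the mast cell genes, *Kit* was at 19.1, 15.7 and 10.6 TPM, while *Fcer1a* and *Tpsab1* were at 0 in every library. *Mcpt4* (0.86, 1.99 and 1.1 TPM), *Cpa3* (0.92, 0.68 and 0.87 TPM), *Tpsb2* (0.32, 0.79 and 0.6 TPM) and *Cma1* (0.34, 1 and 0.25 TPM) were low but above 0 in each.

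Markers of fat and of red cells were present in unequal amounts. White adipocyte markers (*Adipoq*, *Plin1*, *Cidec* and *Lep*) summed to 307, 122 and 119.7 rescaled TPM and brown adipocyte markers (*Ucp1*, *Cidea* and *Elovl3*) to 294, 119 and 96.9. *Adipoq* was at 63.3, 26.9 and 21.5 TPM and *Ucp1*, the uncoupling protein of brown fat, at 49, 12.9 and 11.8 TPM. Replicate 1 was the highest library for all 4 white markers, and its white adipocyte list (10 genes) took 0.388% of TPM, against 0.203% and 0.193% in replicates 2 and 3. The lipid synthesis genes *Fasn* (148, 40.5 and 38.5 TPM) and *Scd1* (213, 58.6 and 54.1 TPM), chosen after their values were seen, had the same order. Globin RNAs of red cells were highest in replicate 1 too: *Hba-a2* was at 1253, 479 and 476 TPM and *Hbb-bs* at 1163, 369.7 and 518 TPM.

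Markers of nerve were high in replicate 2. *Th*, the first enzyme of noradrenaline synthesis, was at 0, 8.43 and 0 TPM, *Dbh*, a later enzyme of that path, at 0, 13.8 and 0 TPM, and *Npy*, the cotransmitter of sympathetic neurons, at 0, 39.7 and 0.34 TPM. *Snap25*, which releases transmitter vesicles, was at 0.25, 7.46 and 0 TPM. *Th* and *Dbh* were listed at 0 in replicates 1 and 3. Cytoskeletal genes of neurons had the same pattern, with *Tubb3* at 0.23, 12.1 and 0.13 TPM and *Prph* at 0.24, 11.8 and 0.41 TPM. *Uchl1* was at 49.2, 137 and 35.9 TPM. Of the genes of Schwann cells, the glia of peripheral nerve, the factor *Sox10* was at 1.19, 3.47 and 0.59 TPM, myelin basic protein (*Mbp*) at 11.7, 30.1 and 5.97 TPM and the myelin gene *Ncmap* at 0.23, 2.26 and 0.3 TPM. Each of these nerve genes was highest in replicate 2. The part of nerve tissue in other values of replicate 2 was not tested. *Chmp1a*, an ESCRT gene, was also high there alone (33, 357 and 28.6 TPM), as was *Ccdc91* (8.61, 67.5 and 11.3 TPM); both were chosen after their values were seen.

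Markers of other neighbouring tissues were low. The adrenal markers *Cyp11a1*, *Cyp11b1* and *Star* summed to 3.13, 2.56 and 1.92 rescaled TPM, almost all of it *Star* (1.69, 1.53 and 0.95 TPM), and *Cyp11b1* was at 0 in every library. The mesothelial markers *Msln* and *Upk3b* were at 0.05, 0 and 0 and 0.06, 0 and 0.03 TPM. Skeletal muscle markers summed to 27.8, 16.9 and 12.2, with *Ckm* at 3.46, 5.55 and 1.91 TPM, and cardiomyocyte markers to 8.81, 10.4 and 4.85. Of these, *Tnni3* was at 3.54, 4.05 and 1.23 TPM, *Myh6* at 0.92, 2.09 and 1 TPM and *Nppa* at 0.29, 0.22 and 0.17 TPM. In the longer cardiomyocyte list 4 of 12 genes were above 1 TPM in every library. Among them were *Tnnt2* (5.76, 11.9 and 6.08 TPM) and *Pln* (7.79, 9.31 and 5.8 TPM).

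**Figure D4:**
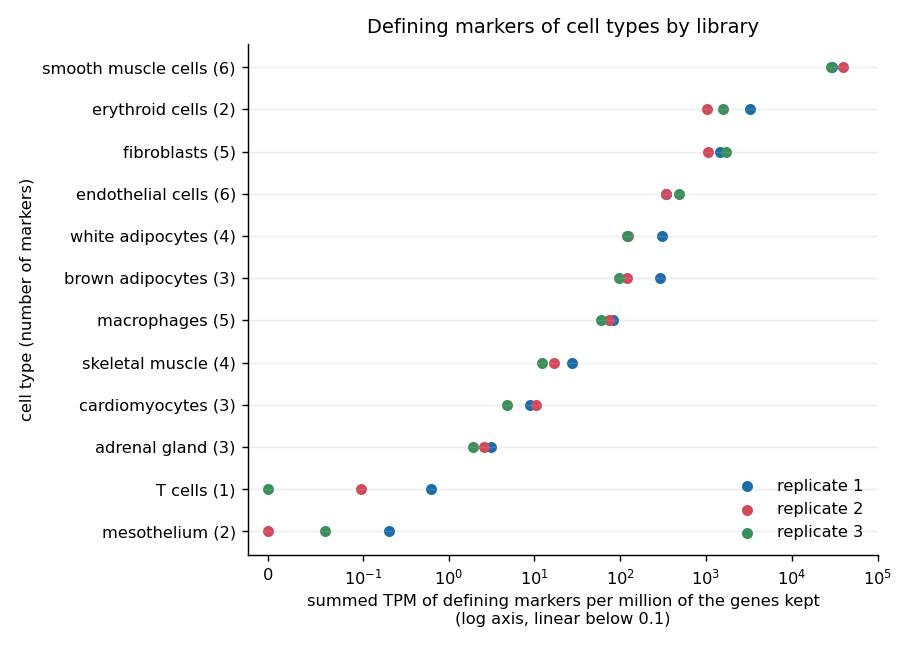
Summed TPM of the defining markers of 12 cell types, rescaled to a total of 1000000 over the genes kept, in each of the 3 control libraries, on an axis that is logarithmic above 0.1 and linear below it. Smooth muscle stood highest, and fat and red cell markers were highest in replicate 1 (307 for white adipocytes, against 122 and 119.7). Markers of neurons and Schwann cells, highest in replicate 2, and of B cells, highest in replicate 1, are not shown.

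Across genes the 3 libraries tracked each other closely. Pearson's r of log2(TPM + 0.5) across the 13557 genes whose mean reached 1 TPM was 0.961 for replicates 1 and 2, 0.959 for 1 and 3 and 0.958 for 2 and 3; genes are not independent, and no p is given. For the same genes the median CV was 18%, with quartiles of 12.5% and 25.6%. After scaling by size factors it was 11.6%. The median CV fell over the lower levels, from 25% (21.4% scaled) at 1 to 5 TPM to 16.2% (9.09% scaled) at 10 to 50 TPM. Above that it did not fall steadily, being 16% (8.09% scaled) at 100 to 500 TPM, 12% (7.31% scaled) at 500 to 1000 TPM and 13% (9.62% scaled) in the 47 genes from 1000 TPM.

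**Figure D5:**
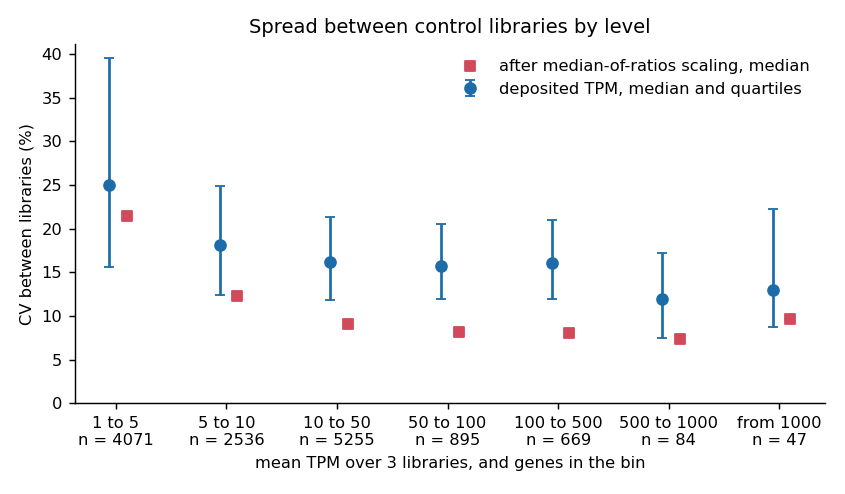
Coefficient of variation (SD over mean, 3 control libraries) by bins of mean TPM; circles are medians of deposited TPM with quartiles as bars, squares medians after median-of-ratios scaling, and n is the number of genes in the bin. The median fell from 25% at 1 to 5 TPM to 16.2% at 10 to 50 TPM, and scaling lowered it in every bin.

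Of the 9486 genes whose mean reached 5 TPM, 377 (3.97%) differed at least 2-fold between their highest and lowest library on TPM + 0.5. With replicate 1, 2 or 3 left out there were 221, 201 and 163. Among the 260 of the 377 that are protein coding, replicate 3 was lowest for 209, and the highest library was replicate 1 for 113, replicate 2 for 128 and replicate 3 for 19. These splits are of deposited TPM, where replicate 3 has the smallest size factor. After scaling by size factors 264 genes were 2-fold apart, and among the 152 coding ones replicates 1, 2 and 3 were lowest for 38, 61 and 53. With TPM rescaled over the genes kept there were 532, and among 342 coding ones replicate 3 was lowest for 172. Of the 20 genes with the largest SD of log2(TPM + 0.5), 19 are pseudogenes, short RNAs or an entry of unsettled type, and *Npy* is the 1 coding gene. The leading entry, the ribosomal pseudogene *Rpl27-ps3*, was at 275, 303 and 0 TPM, next *Gm11518* at 0, 0 and 237 TPM and the snoRNA *Gm22988* at 0, 0 and 177 TPM. Such entries were high in some libraries and listed at 0 in others. At the other end, the smallest CV among genes from 50 TPM was that of *Cnpy2* (60.6, 60.8 and 60.4 TPM), followed by the ribosomal proteins *Rpl26* (864, 870.4 and 856 TPM) and *Rps27* (642, 637 and 631 TPM), by *Epb41l2* (65.1, 64.3 and 63.9 TPM) and by *Gas5*. The 10 also held *Rps7*, *Pnrc1*, *Fgfr1op2*, *Ogn* and *Rpl31-ps8*. Their flat values are those of deposited TPM: after size-factor scaling the CV of the 10 was 11.8% to 15.2%.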

How the data were processed

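RNA of abdominal aorta from control mice (3 samples) was sequenced by the authors after poly A selection, at 40 M read pairs per library on average. The values used are TPM (transcripts per 1000000) per gene for 55426 genes, which the authors deposited rounded to 2 decimals. The submitters' processing notes name cutadapt 2.3, FastQC 0.11.8, STAR 2.7.8a, RSEM 1.3.3, MultiQC 1.7 and the genome build GRCm38. The annotation release and filters are not given in the sources used here. TPM is scaled to 1000000 per library, so the depth behind each value is unknown. No 2 control libraries held identical values. Positions and gene types were looked up by Ensembl identifier in GENCODE M21 (GRCm38), which held no entry for 186. 39 genes were left out (37 mt- genes, *CT010467.1* and *AY036118*).

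Means, SDs and CVs over the 3 libraries were computed with Python 3.11.15, numpy 2.4.6 and pandas 2.3.3, without any test, since 1 group is described. For symbols with 2 entries the higher was used. CVs were computed from a mean of 1 TPM and 2-fold ranges from a mean of 5 TPM with a pseudocount of 0.5. The text names the 50 highest genes, members of 62 gene lists, the 20 genes of largest SD of log2(TPM + 0.5) from a mean of 5 TPM, the 10 of smallest CV from 50 TPM, and *Prdm16*. Of the lists 56 were written by symbol and 6 by a pattern of symbols, and the pattern of oxidative phosphorylation also takes in some pseudogenes. The members and lists were chosen with earlier results of these data known. The code was tested on simulated data. Alternatives were other scalings, minimums and pseudocounts, coding genes only, the median, no gene left out, and each library left out. Planned protein sequences were not used here, and values of some list members are not reported here.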

Additional observations from a re-analysis of the deposited data

How the results depend on the processing

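The count of genes above 1 TPM in every library stayed within 1.5 times its value in all alternatives, from 8711 with a minimum of 5 TPM to 13778 with 0.5 TPM, and from 12643 to 13007 with 1 library left out. Of the 50 highest genes, 33 stayed when no gene was left out and 42 when the ranking was limited to coding genes. With 1 library left out, 49 stayed each time. The share of the 100 highest genes was 62.4% with no gene left out and 28.5% of coding TPM, and 32.6% to 34.1% with 1 library left out. The median CV moved with scaling: 13.3% with TPM rescaled over the genes kept, 11.6% with size factors and 28% with no minimum mean. It ran from 12.6% to 20.7% with 1 library left out, lowest without replicate 3 and 13.2% without replicate 2. Genes at least 2-fold apart numbered 1210 from a mean of 1 TPM and 108 from 20 TPM, and 163 to 221 with 1 library left out (221 without replicate 1, 201 without replicate 2, 163 without replicate 3), where fewer libraries are compared. A list share cannot change with rescaling or size factors, since these cancel in a share. With 1 of 3 libraries left out, its mean cannot move by over 1 SD. These alternatives therefore do not test the list shares. With no gene left out, which enlarges the total, 57 of 62 list shares moved by over 1 SD. Rescaling over the genes kept moved 1051 of 1204 gene means by over 1 SD, and size factors 2. No paired analysis was possible because only 1 group is described. TPM keeps no depth, so no counting interval or floor can be given and a value of 0 sets no limit. Entries that share sequence with others, pseudogenes above all, may hold reads of their partners, and antisense partners could not be told apart, since the strand setting of the counting is not given in the sources used here.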
